A study of Homo sapiens with 6 samples.

Results

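Keratins are the intermediate filament proteins of epithelial cells. Each filament is built from pairs of a type I chain and a type II chain, so that neither type forms filaments alone. In the prostate, KRT8 and KRT18 mark the luminal cells that line the gland, KRT5, KRT14 and KRT15 mark the basal cells beneath them, and KRT19 is found in both layers and in cells between these states. KRT6A and KRT17 are known as keratins of injured and rapidly growing stratified epithelia.

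The 10 keratin genes described here were taken by symbol from 23062 identifiers. They are the type II genes KRT7, KRT8, KRT5, KRT6A, KRT80 and KRT81 and the type I genes KRT18, KRT19, KRT15 and KRT17. They were measured by RNA sequencing in DU145 cells, a human prostate cancer cell line from a brain metastasis that does not depend on androgen, labelled WT in all libraries and grown in MEM with serum. The 3 control libraries came from cells kept in medium for 48 h, and 3 libraries from cells given taraxasterol (TAX), a plant triterpene, at its IC50 dose for 48 h. The comparison asks which transcripts differ between these groups. TAX was dissolved in DMSO, while the labels of the controls name medium only, so that the solvent and TAX cannot be told apart. The methods of the study state in general that experiments were repeated, while the labels do not say whether the libraries of 1 group came from separate cultures, and the p-values measure the spread between these libraries, which may be technical.

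The values are FPKM, fragments scaled to gene length and to the total of the library, which allows genes to be compared with each other. The FPKM of a library summed to between 322483 and 363724. Read counts were not part of the tables, so depth is unknown. Control replicate 3 had the lowest sum, a median of 8.74 FPKM over the tested genes against 9.84 to 9.99 FPKM in the other 5 libraries, and the lowest value of 58.0% of the 12359 tested genes. As no cell was measured singly, a change in the share of cells that express a gene and a change of RNA per cell cannot be told apart.

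The members share the end of the central rod, a stretch that is conserved among keratins. The 30 coding bases of this stretch are shown for members of both types to let the family be compared, from GENCODE 29 transcripts (GRCh38), with capitals for the 17 bases that are the same in all 10 genes.
KRT7, type II: ATcGCcACcTACcGcaagCTGcTgGAgGgc
KRT5, type II: ATcGCcACtTACcGcaagCTGcTgGAgGgc
KRT6A, type II: ATcGCcACcTACcGcaagCTGcTgGAgGgt
KRT81, type II: ATcGCcACcTACaGgcgcCTGcTgGAgGgc
KRT19, type I: ATtGCcACcTACcGcagcCTGcTcGAgGga
KRT15, type I: ATcGCtACtTACcGcagcCTGcTcGAgGgc
KRT17, type I: ATtGCcACcTACcGccgcCTGcTgGAgGga
Over the whole coding sequence, the 21 pairs of the same type were identical at 61.2% to 83.1% of aligned bases, with a median of 67.0%. The 24 pairs of different type were identical at 54.6% to 63.9%, with a median of 57.3%.

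DU145 cells expressed the keratins of simple epithelium at high levels and listed the basal keratins KRT5 and KRT14 at or near 0, while the basal keratin KRT15 was low. KRT7, KRT8, KRT18 and KRT19 together made up 90.7% to 92.9% of the summed FPKM of all 55 keratin genes in each library. With KRT80 this share was 96.7% to 97.9%. KRT5 and the injury keratin KRT6A were listed at 0 in all 6 libraries. These levels are a description of the cells and were not tested.

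**Figure D1:**
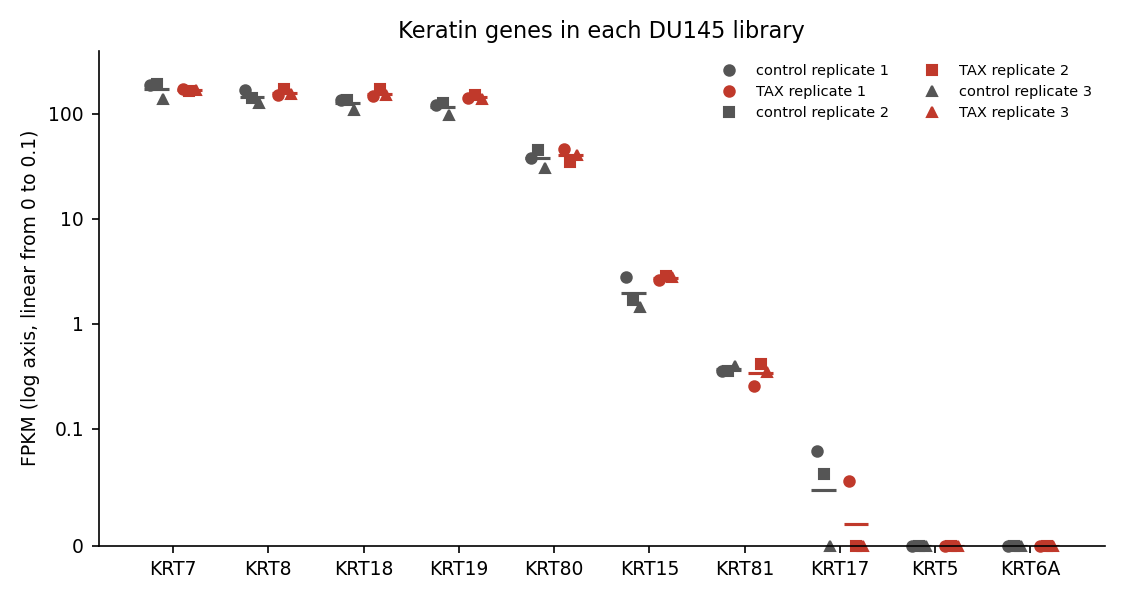
FPKM of each keratin gene in the 3 control libraries (grey) and the 3 TAX libraries (red), with the mean of each group as a bar. The axis is logarithmic above 0.1 FPKM and linear below. KRT7, KRT8, KRT18 and KRT19 lie between 98.6 and 191 FPKM, and KRT5 and KRT6A lie at 0 in all libraries.

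KRT7, a type II keratin of ductal and glandular epithelia, had the highest mean, 171 FPKM over the 6 libraries. It was followed by KRT8 with 153 FPKM, KRT18 with 142 FPKM and KRT19 with 130 FPKM. KRT7 ranked between 198 and 269 among all identifiers, KRT8 between 231 and 326, KRT18 between 246 and 398, and KRT19 between 297 and 452. Within both groups the ranges of each adjacent pair in this order overlapped, while those of KRT7 and KRT19 did not. Within single libraries, KRT8 exceeded KRT18 and KRT18 exceeded KRT19 in 6 of 6 libraries, and KRT7 exceeded KRT8 in 5 of 6. KRT80, a type II keratin found in many epithelia, followed with a mean of 39.2 FPKM. The steps from KRT19 to KRT80, from KRT80 to KRT15, from KRT15 to KRT81 and from KRT81 to KRT17 were without overlap in both groups.

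KRT15, a basal type I keratin, had a mean of 2.37 FPKM, and its rank lay between 10118 and 11422. KRT81, a type II keratin of hair, had 0.259 to 0.417 FPKM. KRT17 was listed at 0.0811, 0.0615 and 0 FPKM without TAX and at 0.0556, 0 and 0 FPKM with TAX. KRT14, the type I partner of KRT5, is no member and was listed above 0 in 1 library only, at 0.0161 FPKM in control replicate 3. The summed FPKM of KRT8 and KRT18 was 106 to 160 times that of KRT5, KRT14, KRT15 and KRT17, and nearly all of the latter sum was KRT15. An exact 0 in such tables can be a failed estimate, and 3130 of the identifiers are assembled loci without a gene name whose positions are not known. Reads of a keratin gene assigned to such a locus would not be seen here.

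All members lie in the 2 keratin gene clusters of the genome. In GENCODE 29 (GRCh38), KRT80 lies on chromosome 12 from 52168996 to 52192000, KRT7 from 52232520 to 52252186, KRT81 from 52285913 to 52291534, KRT6A from 52487174 to 52493257 and KRT5 from 52514575 to 52520687. KRT8 lies on the same chromosome from 52897187 to 52949954 on the minus strand, and KRT18, the type I gene within the type II cluster, from 52948871 to 52952901 on the plus strand. Their outer annotated ends overlap by 1084 bp. The other type I members lie on chromosome 17 on the minus strand, KRT15 from 41513743 to 41522529, KRT19 from 41523617 to 41528308 and KRT17 from 41619441 to 41624842. KRT15 and KRT19 are neighbours, 1087 bp apart. KRT81 lies inside the annotated span of KRT86 on the opposite strand, and the 3′ end of KRT7 overlaps KRT86 on the same strand. Whether reads were counted by strand is not given in the sources used here.

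The coding sequences differ in how far reads can be assigned to them. Of all stretches of 75 coding bases, 47.1% in KRT81 and 35.1% in KRT6A also occur in transcripts of another gene, 22.1% in KRT8 and 7.15% in KRT18. It was 3.54% in KRT5 and 3.68% in KRT17, and no such stretch was found in KRT7, KRT19, KRT80 or KRT15. The copies of KRT8 and KRT18 stretches belong to their pseudogenes, KRT8P3 and KRT18P11 leading. For KRT81 the partner is KRT86, another hair keratin, with a run of 605 identical coding bases. The first 90 bases of this run, coding bases 61 to 150 of both genes, are shown because no read inside them tells the genes apart.
KRT81 and KRT86: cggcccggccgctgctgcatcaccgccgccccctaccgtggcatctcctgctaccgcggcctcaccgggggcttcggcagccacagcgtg
KRT86 had 0.303 to 0.586 FPKM, so the low values of KRT81 and KRT86 are uncertain individually. KRT6C, which shares most with KRT6A, was listed at 0 in all libraries, and KRT6B was above 0 in 1 library, at 0.0146 FPKM.

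After TAX treatment, 0 of the 6 testable keratins changed at an adjusted p under 0.05 (limma, Benjamini-Hochberg adjustment over all 12359 genes), where 0.477% of all tested genes did. The type I genes KRT18, KRT19 and KRT15 had an unadjusted p under 0.05, each with a higher mean in TAX-treated cells. That is 3 of 6 members higher and 0 of 6 lower, where 7.73% of all tested genes were higher and 2.41% lower at this level. The type II genes KRT7, KRT8 and KRT80 did not reach it. The tested genes are those with at least 1 FPKM in at least 3 libraries. KRT5, KRT6A, KRT17 and KRT81 did not pass this filter.

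KRT19 had 121, 126 and 98.6 FPKM in the controls (replicates 1, 2 and 3) and 142, 151 and 138 FPKM after TAX, in the same order of replicate numbers. Every TAX library lay above every control library, and the lowest value was that of control replicate 3. The log2 fold change of KRT19 on the log2(FPKM + 1) scale was 0.32 (standard error 0.10, 95% interval 0.092 to 0.55, unadjusted p = 0.0108 and adjusted p = 0.336 from limma). The means were 115 ± 14.7 and 144 ± 6.50 FPKM (SD, n = 3 each).

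KRT18, the luminal type I keratin, had 136, 137 and 108 FPKM without TAX and 147, 172 and 150 FPKM with TAX. The groups did not overlap here either. The log2 fold change of KRT18 was 0.30 (standard error 0.11, 95% interval 0.052 to 0.55, unadjusted p = 0.0225 and adjusted p = 0.411 from limma). KRT18 and KRT19 were 2 of 6 members without overlap in the higher direction, where 14.6% of all tested genes showed this. For both genes the exact two-sided permutation test gave p = 0.1, the smallest that 3 against 3 libraries allow.

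KRT15 had 2.80, 1.68 and 1.46 FPKM without TAX and 2.60, 2.87 and 2.78 FPKM with TAX. Control replicate 1 lay among the TAX libraries, so the groups overlapped. The log2 fold change of KRT15 was 0.36 (standard error 0.14, unadjusted p = 0.0292 and adjusted p = 0.435 from limma). It was 0.55 without control replicate 1 (unadjusted p = 0.000169 and adjusted p = 0.0663) and 0.23 without control replicate 3 (unadjusted p = 0.146), and its unadjusted p was also above 0.05 without control replicate 2 (0.0884) or TAX replicate 2 (0.0641), and without a filter on low values (0.0722).

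KRT8, the luminal type II partner of KRT18, had 170, 141 and 126 FPKM without TAX and 151, 173 and 154 FPKM with TAX. The groups overlapped, with a log2 fold change of 0.14 (95% interval -0.12 to 0.40, adjusted p = 0.698 from limma). It was 0.26 without control replicate 1 (unadjusted p = 0.0331), 0.039 without control replicate 3 and 0.077 without TAX replicate 2. KRT7 had 187, 191 and 139 FPKM without TAX and 174, 164 and 169 FPKM with TAX, where the TAX libraries lay inside the range of the controls. The log2 fold change of KRT7 was -0.015 (95% interval -0.28 to 0.25, adjusted p = 0.970 from limma). KRT80 had 37.8, 45.2 and 30.9 FPKM without TAX and 46.2, 34.7 and 40.6 FPKM with TAX. Its groups overlapped as well, with a log2 fold change of 0.097 (95% interval -0.21 to 0.41, adjusted p = 0.828 from limma). As ratios of TAX to control, these intervals run from 0.920 to 1.32 for KRT8, from 0.821 to 1.19 for KRT7 and from 0.863 to 1.33 for KRT80.

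**Figure D2:**
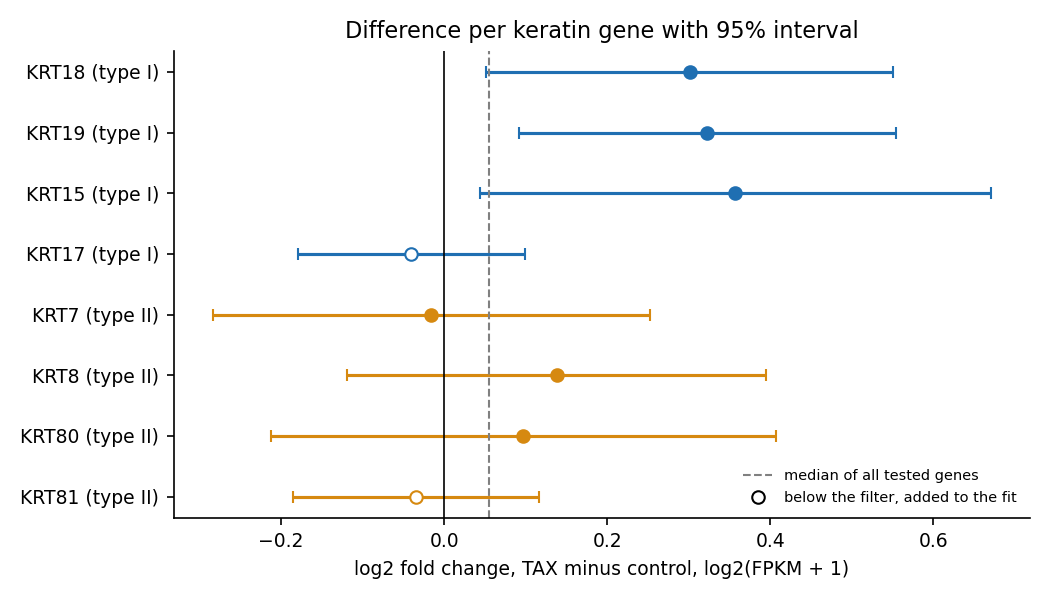
Log2 fold change between TAX-treated and control cells on the log2(FPKM + 1) scale (points) with 95% intervals from limma (bars), for type I (blue) and type II (orange) genes. The dashed line is the median of all tested genes, 0.054. Open points are KRT17 and KRT81, added below the filter. The intervals of KRT18, KRT19 and KRT15 lie above 0, and those of the other genes shown include 0.

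Control replicate 3 held the lowest value of 6 of 6 tested members. Without it, the log2 fold change was 0.22 for KRT19 (unadjusted p = 0.0132), 0.19 for KRT18 (unadjusted p = 0.0552, and 0.0936 without TAX replicate 2 instead) and -0.16 for KRT7 (unadjusted p = 0.0312), and that of KRT80 turned from 0.097 to -0.039. With the median of every library set equal, it was 0.27 for KRT19 (unadjusted p = 0.00574), 0.24 for KRT18 (unadjusted p = 0.0212), -0.073 for KRT7 and 0.30 for KRT15 (unadjusted p = 0.0539). This left 2 of 6 members at an unadjusted p under 0.05, each higher with TAX (limma). In the same fit 1497 of all 12359 tested genes were at this level in either direction. Their split by direction is not given here. No adjusted p of a tested member fell under 0.05 in any of the 13 alternatives (limma).

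Added to the fit, KRT81 had a log2 fold change of -0.035 and KRT17 of -0.040, with adjusted p of 0.875 and 0.838 (limma). On this scale a change of such low values is understated. KRT5 and KRT6A could not be fitted.

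The balance of type I to type II keratins was set out within each library, where the scaling of the library has no part. The summed FPKM of the 28 type I genes was 0.682, 0.734 and 0.751 times that of the 26 type II genes in control replicates 1, 2 and 3. In TAX replicates 1, 2 and 3 it was 0.816, 0.906 and 0.832 times. All TAX libraries lay above all control libraries. The type I sum was 257 ± 29.8 FPKM without TAX and 315 ± 20.2 FPKM with TAX, and the type II sum was 357 ± 53.1 and 370 ± 4.93 FPKM (SD, n = 3 each).

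The ratio of KRT19 to KRT7 was 0.646, 0.660 and 0.710 without TAX and 0.815, 0.920 and 0.821 with TAX. Control replicate 3, the library with the lowest values, had the highest control ratio. The ratio of KRT18 to KRT8, the usual luminal pair, was 0.801, 0.974 and 0.858 in control and 0.973, 0.994 and 0.974 in TAX-treated cells. This ratio overlapped between the groups through control replicate 2. The ratios combine members whose single values had been seen, and they were given no test.

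**Figure D3:**
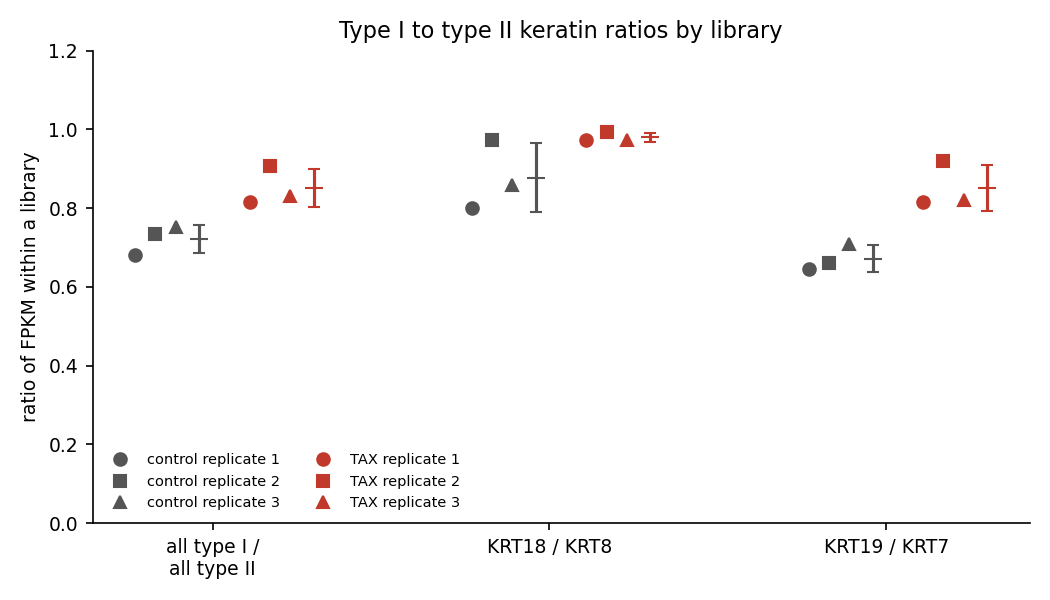
Ratios of FPKM within each library for the summed type I and type II keratins, for KRT18 and KRT8 and for KRT19 and KRT7, in control (grey) and TAX (red) libraries, with mean and SD beside the points. The summed ratio is 0.682 to 0.751 in control and 0.816 to 0.906 in TAX libraries, and KRT18 to KRT8 overlaps through control replicate 2.

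By the root mean square difference of centred log2(FPKM + 1) values over the 6 libraries, the genes most like KRT19 among 8400 named genes with a mean of at least 5 FPKM were ARFRP1, RELB and SPRY2. ARFRP1 encodes a GTPase of the Golgi, RELB an NF-kB subunit and SPRY2 a feedback inhibitor of receptor tyrosine kinase signaling. Their differences from KRT19 were 0.029, 0.031 and 0.036. KRT18 ranked 6 in this order with 0.044, KRT8 ranked 2287 and KRT7 ranked 5425. Likeness was measured over 6 libraries of 2 groups, and the part of the group difference or of control replicate 3 in it was not tested.

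Beyond the 10 members, 45 further keratin genes had rows. Of these, 27 were listed at 0 in all libraries and 1 reached 1 FPKM in any library. That gene was KRT10, the type I keratin of suprabasal epidermis, with 9.96, 12.4 and 14.7 FPKM without TAX and 12.1, 11.8 and 11.3 FPKM with TAX. Control replicate 3 had the highest KRT10 value, and its log2 fold change was -0.054 (adjusted p = 0.891 from limma). The 17 further keratins above 0 in some library were below the filter and were added to the fit. Their log2 fold changes lay between -0.031 and 0.072, a scale that understates changes of such low values, and 0 of the 17 had an unadjusted or adjusted p under 0.05 (limma, lowest adjusted p 0.690).

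Keratin filaments are anchored at desmosomes and linked by plakins. Of 15 such genes 13 were tested, 0 of them passed the adjusted threshold in either direction, and 2 had an unadjusted p under 0.05, both higher (limma), beside 0.477% of all tested genes at the adjusted threshold and 7.73% higher at the unadjusted one. Their median log2 fold change was 0.042, beside 0.054 for all tested genes. PLEC, which encodes the linker plectin, had 55.7, 53.2 and 44.3 FPKM without TAX and 67.6, 62.6 and 66.6 FPKM with TAX, without overlap, as 14.6% of all tested genes were in this direction (log2 fold change 0.36, unadjusted p = 0.00385, adjusted p = 0.220 from limma). DSG2, a desmosomal cadherin, had 96.3 ± 9.36 and 109 ± 5.20 FPKM, and DST, the linker dystonin, 56.2 ± 4.96 and 59.1 ± 3.87 FPKM (SD, n = 3 each).

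Among 13 other intermediate filament genes, 10 were tested, 0 passed the adjusted threshold and 2 had an unadjusted p under 0.05, both higher (limma), beside 7.73% of all tested genes. VIM, the mesenchymal filament vimentin, exceeded every keratin in every library. It had 479, 449 and 373 FPKM without TAX and 504, 538 and 511 FPKM with TAX (log2 fold change 0.26, unadjusted p = 0.0372, adjusted p = 0.459 from limma). The ratio of KRT18 to VIM was 0.285 to 0.305 in control and 0.292 to 0.320 in TAX-treated cells, with overlap. LMNA, a nuclear lamin, had a log2 fold change of 0.28 (unadjusted p = 0.0132, adjusted p = 0.355), and LMNB2 of 0.15.

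Of genes of stratified differentiation 17 had rows and 3 reached the filter, with a median log2 fold change of -0.016. They were SFN, which encodes 14-3-3 sigma, at 113 ± 12.7 and 129 ± 9.21 FPKM, FLG, the gene of filaggrin, at 2.56 ± 0.420 and 2.51 ± 0.222 FPKM, and CNFN, a cornified envelope gene, at 2.07 ± 0.355 and 1.60 ± 0.206 FPKM (SD, n = 3 each). 0 of the 3 passed the adjusted threshold, and CNFN was lower at an unadjusted p of 0.0469 (limma), beside 2.41% of all tested genes lower at this level.

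Of 15 genes that encode regulators of keratin transcription, 9 were tested, with a median log2 fold change of 0.0083, and 0 passed the adjusted threshold (limma). 1 of the 9 had an unadjusted p under 0.05 and was lower, beside 2.41% of all tested genes. This was ELF3, an epithelial ETS factor, with 27.9, 36.8 and 21.9 FPKM without TAX and 19.1, 17.3 and 19.9 FPKM with TAX, all TAX libraries lying below all controls, as for 3.34% of all tested genes (log2 fold change -0.57, unadjusted p = 0.00366, adjusted p = 0.214 from limma). TP63, the factor that defines basal cells and drives KRT5 and KRT14, did not exceed 0.0160 FPKM. NFE2L2 had 54.1 ± 10.5 and 52.8 ± 3.60 FPKM, and SP1 20.1 ± 1.10 and 20.4 ± 1.15 FPKM (SD, n = 3 each).

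The label of the cells was compared with marker genes. Of 8 epithelial markers 7 had at least 1 FPKM in every library, led by EPCAM with 58.6 ± 4.06 and 64.8 ± 1.35 FPKM and by CDH1 with 54.1 ± 13.1 and 47.5 ± 4.18 FPKM (SD, n = 3 each). GRHL2 was listed at 0 in all libraries. An exact 0, in this list as in the others, can be a failed estimate. Of the 7 tested, 2 had a log2 fold change above 0 and 5 below 0, with a median of -0.060. Of all tested genes, 69.1% lay above 0. At the adjusted threshold 0 of the 7 passed, and 1, ELF3, was lower at an unadjusted p under 0.05 (limma), beside 2.41% of all tested genes. The summed FPKM of the 8 epithelial markers was 143 to 194 in control and 155 to 162 in TAX libraries. Of 11 prostate luminal markers with a row, 3 reached 1 FPKM, among them CD24 and SLC45A3, while KLK3 and HOXB13 were at 0. Their summed FPKM was 129 to 163 in control and 154 to 168 in TAX libraries.

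Of 9 basal markers other than keratins, 6 were tested and 6 had a log2 fold change above 0, with a median of 0.33, 4 at an unadjusted p under 0.05 and 0 at an adjusted p under 0.05 (limma). Of all tested genes, 69.1% lay above 0 and 7.73% were higher at this unadjusted level. The list was chosen with earlier results of these data known, so these counts are a description and no independent test. Of the luminal markers, 3 of 3 tested also lay above 0. LAMB3, a laminin chain of the basement membrane, had 133, 148 and 106 FPKM without TAX and 207, 183 and 204 FPKM with TAX (log2 fold change 0.63, adjusted p = 0.0701). ITGA6, the integrin of hemidesmosomes, had 35.0 ± 1.22 and 43.6 ± 0.336 FPKM (SD, n = 3 each) with an adjusted p of 0.145 (limma), and CD44 43.7 ± 4.63 and 44.8 ± 2.29 FPKM. The sum of the list was 204 to 262 FPKM without TAX and 310 to 336 FPKM in TAX libraries, without overlap, while its defining markers TP63 and TRIM29 were at or near 0. LAMB3 made up 69.2 of the 88.5 FPKM between the means of these sums, and without it the sum was 98.2 to 117 FPKM in control and 127 to 132 FPKM in TAX libraries.

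Markers of other cell types were at or near 0, with 2 of 12 reaching 1 FPKM. PTPRC did not exceed 0.0069 FPKM, and CD3E, COL1A2, DCN and LUM were at 0. The exceptions were CD68, a lysosomal gene, with 23.4 ± 3.34 and 33.0 ± 0.482 FPKM (SD, n = 3 each) and an adjusted p of 0.0884 (limma), and COL1A1 with 2.00 ± 0.0947 and 1.44 ± 0.0285 FPKM (SD, n = 3 each) and an adjusted p of 0.197. The sum of the list was 22.5 to 29.4 FPKM without TAX and 34.3 to 35.4 FPKM in TAX libraries, nearly all of it from CD68, and its part in the keratin values was not tested.

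**Figure D4:**
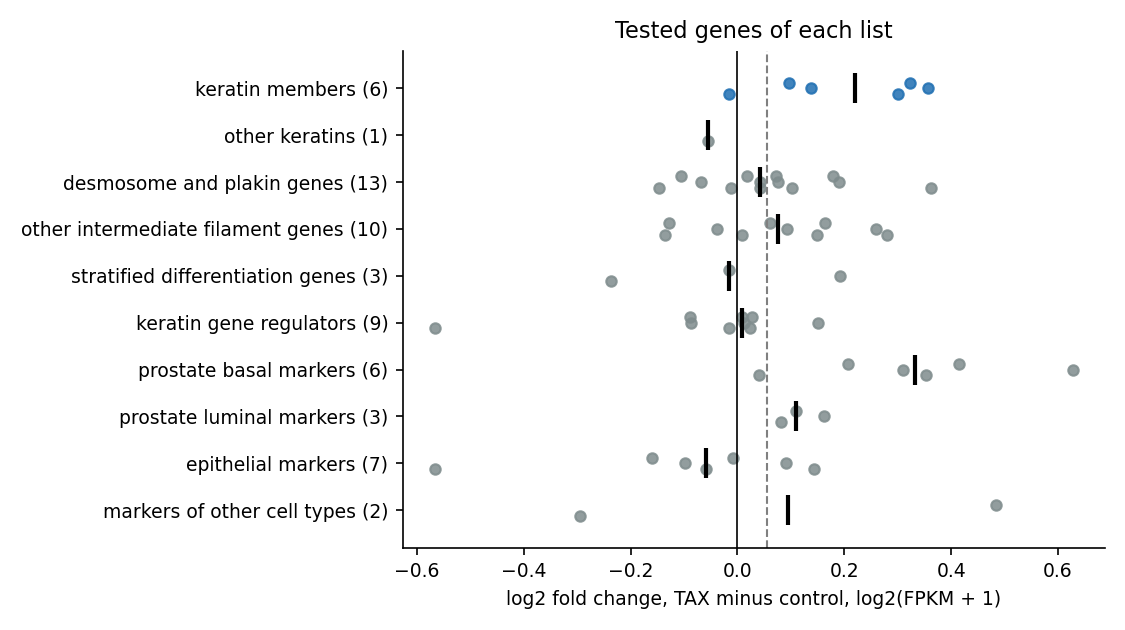
Log2 fold change (TAX minus control, log2(FPKM + 1) scale) of each tested gene of the keratin members (blue) and of each list (grey), with the median of the list as a black bar and the number of tested genes in brackets. The dashed line is the median of all tested genes, 0.054. The median of the 6 keratin members is 0.22 and that of the 6 basal markers 0.33. The members and lists were chosen with earlier results of these data known.

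The median of the 6 tested keratins was 0.22, with 5 of 6 above 0, beside 69.1% of all tested genes. It was 0.11 with 4 of 6 above 0 without control replicate 3, where the median of all tested genes was 0.0058. After quantile normalization it was 0.14 with 5 of 6 above 0, where the median of all tested genes was 0.0037. The 69.1% belongs to the fit as reported, and the share above 0 in the other fits is not given here. These 6 genes were measured in the same libraries, so the count is a description only.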

How the data were processed

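Per the labels, RNA of DU145 cells was isolated with Trizol, and mRNA libraries were sequenced. The submitters' processing notes name HISAT2 2.2.0, StringTie 2.1.2 and GRCh38, and their roles, the annotation and filters are not given in the sources used here. For every library the authors deposited a table of gene values, taken as FPKM since StringTie writes this unit, values hold decimals and library totals are unequal (no header names the unit). The limma package (3.58.1, R 4.3.3) fitted log2(FPKM + 1) by lmFit and trended eBayes. A gene entered when 3 or more of the 6 libraries held 1 FPKM or more (12359 genes), with Benjamini-Hochberg adjustment. Members and listed genes under this filter were added in a second fit. The exact permutation test covered all 20 assignments of 3 of the 6 libraries to a group. Positions and coding sequences came from GENCODE 29, using the transcript with the longest coding sequence. On simulated data of 12359 genes, 60% of 200 genes set to a log2 change of 0.585 and 95% of those set to 1 were recovered, with 7 and 9 false calls. Each gene was drawn independently there, without a shift of a whole library such as that of control replicate 3. Changes as small as those of the tested keratins, at most 0.36 in the main fit, were not simulated. Named genes were the members, paralogs, the 3 most abundant genes of each list and the 3 most like KRT19. TP63, GRHL2, KLK3, HOXB13, TRIM29 and the other markers given at or near 0 were chosen after their values were seen. The members and lists were chosen with earlier results of these data known. Some listed genes and sequences are not reported here.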

Additional observations from a re-analysis of the deposited data

How the results depend on the processing

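Of the tested keratins, 0 had an adjusted p under 0.05 in each of the 13 alternatives (limma), with 1 to 4 at an unadjusted p under 0.05. Over all genes, 773 to 1854 were at this unadjusted level in the same alternatives, where 12264 to 20280 genes were tested. The unadjusted p of KRT19 was under 0.05 in 13 of the alternatives, that of KRT18 in 11 and that of KRT15 in 8, and their log2 fold changes stayed above 0. With a library left out in turn, that of KRT7 ranged from -0.16 to 0.067 and turned above 0 in 3 cases (0.051 and 0.067 without control replicates 1 and 2, 0.0046 without TAX replicate 2), and that of KRT80 ranged from -0.039 to 0.23. The count of all genes called, 59 as reported, was 37 with a filter of 0.1 FPKM, 1 without a filter, 95 after quantile normalization, 96 after centring on the median, and 18 to 43 with a library left out, where fewer samples were fitted. With the replicate number as a block it was 26, and 0 keratins were called. Deviations of libraries with the same number correlated at -0.12, -0.33 and -0.17 across genes, so the numbers did not pair the libraries. The replicate block is therefore no sign of a weaker effect. For libraries of different number, correlations ran from -0.17 (control replicate 3 with TAX replicate 1) to 0.29 (control replicate 3 with TAX replicate 2). Control replicate 2 with TAX replicate 1 had 0.28. Whether such libraries shared a batch was not tested. Depth is unknown, and no counting interval can be given for KRT17, KRT81 or the genes at 0.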

Other observations

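Genes named for keratins without encoding one were read from the same tables. KRTCAP2, whose product is a subunit of the oligosaccharyltransferase of the endoplasmic reticulum, had 86.3, 67.2 and 69.6 FPKM without TAX and 76.9, 80.7 and 67.8 FPKM with TAX, with overlap. The genes of keratin-associated proteins of hair reached at most 0.375 FPKM, in KRTAP2-3.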
